A study of Mus musculus with 18 samples.

Results

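The mouse gene Bcl6 and the 500 kb on either side of its body were examined for sites bound by cohesin and CTCF in double-positive (DP) thymocytes. Every peak of 7 deposited peak lists that touched this stretch was taken, which gave 110 of the 207027 peaks in those lists. Merged over the lists, they formed 30 sites of the 67173 formed genome-wide. The membership rule used position alone and no measured value. In mm10, the build of the lists, Bcl6 lies on chromosome 16 from 23965050 to 23988866, a body of 23817 bp, and the stretch examined runs from 23465050 to 24488866. Bcl6 is read from the minus strand, so upstream means higher coordinates. Distances below are given from its outer RefSeq start at 23988852. A second RefSeq start lies inside the gene at 23981283.

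The study asked what induced loss of Satb1 does in thymocytes. SATB1 is a chromatin-organising protein abundant in these cells. CUT&RUN was used, an assay that sequences the DNA cut free by a nuclease tethered to an antibody-bound chromatin protein. Cells were sorted from the thymus of wild-type (WT) and Satb1 KO mice. Both genotypes carry the label tamoxifen, the drug that induced the knockout, so drug exposure was shared. The labels name neither the driver of the recombinase nor the age, number or pooling of the mice. SMC1A, a core subunit of the cohesin ring, was profiled in 2 WT and 2 KO libraries. CTCF was represented by 1 WT and 2 KO lists. Not analysed here were a second WT CTCF list, the H3K27ac libraries and the IgG and input controls. Nothing in the labels says that libraries of one group came from separate mice, so any p-value measures only the spread between these libraries, which may be technical. In a bulk sample, fewer cells with a bound site and less binding per cell cannot be told apart.

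BCL6 is a transcriptional repressor with an N-terminal BTB domain and C-terminal zinc fingers. It is the defining factor of T follicular helper cells and germinal centre B cells, and it is also made in thymocytes. Its BTB domain recruits corepressors such as BCOR. The long interval between Bcl6 and its upstream neighbour Lpp holds distal enhancers of Bcl6 in B cells. Cohesin extrudes chromatin loops and is commonly halted at CTCF, so sites holding both are candidate loop anchors. The stretch also holds 5 other protein-coding genes, which on the downstream side are Masp1, Rtp4, Sst and Rtp2. Lpp, which encodes a LIM domain protein of cell adhesions, begins 404.5 kb upstream of the Bcl6 start. Between the Bcl6 start and Lpp only noncoding genes and pseudogenes are annotated.

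The sequences just upstream of the starts of Bcl6 and Lpp are shown because the lists divide over them. Peaks overlapped the window before the outer Bcl6 start and not the one before the inner start. Each is the 250 bases before a start in RefSeq's GRCm38.p6, the assembly that mm10 represents, written in the direction of the gene. Capitals mark the bases that lay inside peaks of the largest number of lists.
Bcl6 outer start, chr16:23988853-23989102, minus strand: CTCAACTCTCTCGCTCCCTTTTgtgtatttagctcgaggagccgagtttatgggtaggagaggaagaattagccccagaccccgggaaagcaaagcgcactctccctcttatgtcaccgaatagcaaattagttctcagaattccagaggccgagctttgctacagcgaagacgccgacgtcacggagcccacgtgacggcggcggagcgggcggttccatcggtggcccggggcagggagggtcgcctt
Bcl6 inner start, chr16:23981284-23981533, minus strand: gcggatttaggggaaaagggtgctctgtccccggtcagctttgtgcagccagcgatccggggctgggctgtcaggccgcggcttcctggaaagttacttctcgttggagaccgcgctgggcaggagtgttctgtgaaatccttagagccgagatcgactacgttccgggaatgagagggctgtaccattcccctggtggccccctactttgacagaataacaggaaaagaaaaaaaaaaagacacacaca
Lpp start, chr16:24393100-24393349, plus strand: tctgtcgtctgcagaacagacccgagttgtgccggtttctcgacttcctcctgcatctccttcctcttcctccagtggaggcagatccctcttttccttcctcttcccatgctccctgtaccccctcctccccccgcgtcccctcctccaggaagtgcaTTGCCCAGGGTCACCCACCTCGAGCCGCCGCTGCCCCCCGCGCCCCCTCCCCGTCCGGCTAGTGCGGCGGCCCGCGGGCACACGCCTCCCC
At the outer start, peaks of 6 of the 7 lists overlapped this window, all but WT SMC1A replicate 1, and 22 bases at its far end lay inside a peak of all 6. The inner window was overlapped by no list, and the nearest peak in any list began 192 bp away. At Lpp, 3 lists overlapped the window, WT SMC1A replicate 1, KO SMC1A replicate 1 and KO CTCF replicate 1, and 91 bases were shared by all 3. The outer Bcl6 window had a GC content of 58.4% and 21 CpG dinucleotides, more than 83.7% of RefSeq promoter windows, whose median was 6. The inner window had 54.8% GC and 13 CpG, and the Lpp window 67.6% and 18. The CTCF core consensus was searched by name on both strands and was found in none of the 3 windows. It was found in 167 of 32851 such windows (0.508%), so no match here says only that this consensus is absent. CTCF-like sequences that depart from it were not searched for.

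The lists differed in length and background, and perhaps in depth, which bears on every count below. For SMC1A the peak totals were 19882 and 20638 (WT) and 28151 and 20689 (KO). For CTCF they were 38989 (WT) and 55750 and 22928 (KO). The lists give no read numbers, so depth is unknown. The fold and p-value of a peak together fix the pile-up of reads at its summit and the background expected there. The 1st percentile of this background over a sample of 3000 peaks per list was used as a depth proxy. It was 0.384 to 0.633 reads over the SMC1A lists. In CTCF it was 1.02 reads in WT but 1.82 and 3.28 in KO, so the KO CTCF libraries stood apart from the WT one in background. The weakest pile-up that passed as a peak in a sample of each list was 4 or 5 reads in SMC1A, and 6, 7 and 11 reads in WT CTCF and KO CTCF replicates 1 and 2. Labels could not be checked against the deletion of Satb1 or the identity of the cells, since peak lists measure neither RNA nor protein. All 8 DP thymocyte marker genes had an SMC1A region within 20 kb, as did 3 of 5 B-cell, 3 of 5 myeloid, 4 of 5 erythroid and 3 of 5 thymic epithelial marker genes. The share of all genes with such a region was not counted, so these counts do not identify the cells. The flanks of Cd8a and Cd8b1 overlap, as do those of Rag1 and Rag2.

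Bcl6 carried a dense, broad block of cohesin and CTCF over the front of its body. The WT SMC1A lists held 3 and 6 peaks with summits in the gene body and the KO SMC1A lists 5 and 5. For CTCF there were 6 such peaks in WT and 2 and 4 in KO. One of the 2 peaks of KO CTCF replicate 1 was 6301 bp wide and spanned the stretch that held several peaks in other lists. Within the body and 5 kb on each side, peaks covered 18.3% and 19.8% of bases in the WT SMC1A lists, and 22.3% and 16.0% in the KO SMC1A lists. The values were 23.8% in WT CTCF and 32.5% and 17.4% in KO CTCF. The median protein-coding gene was covered over 0.114% to 0.626% of bases in the SMC1A lists and 0.141% to 2.33% in the CTCF lists. In every list, Bcl6 was covered more than at least 98.9% of the 21887 protein-coding genes. The WT and KO SMC1A values overlapped. Counted over the whole stretch of 500 kb on each side, the gene was ordinary: its 11.7 to 20.5 peaks per Mb exceeded those of 30.1% to 56.8% of genes.

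**Figure D1:**
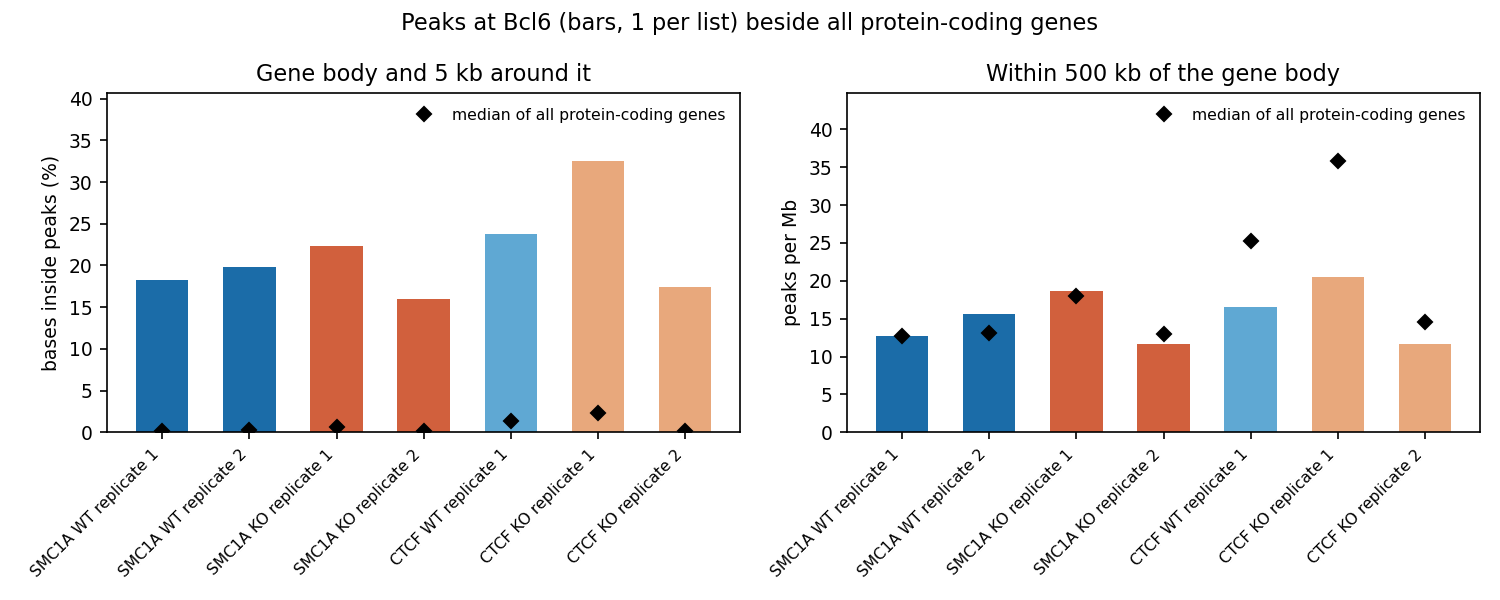
Left and right panels show, per list, the percent of bases inside peaks over the Bcl6 body and 5 kb on each side, and the number of peaks per Mb within 500 kb; bars are Bcl6 and diamonds the median protein-coding gene. Coverage at Bcl6 ran from 16.0% to 32.5% of bases, far above the median gene in all 7 lists, while peaks per Mb lay near or below the median.

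Of the 30 sites, 3 were held by all 7 lists, and 2 of those lay at Bcl6 itself. The share of 10.0% compares with 14.9% of sites genome-wide. The first was a site of 6304 bp inside the gene, from 23981725 to 23988028, between the inner and outer starts. The widest peak at Bcl6 was 3616 and 2501 bp in WT SMC1A and 4471 and 2158 bp in KO SMC1A, against median peak widths of 374 to 405 bp. In CTCF it was 2543 bp in WT and 6301 and 3775 bp in KO, against medians of 401 to 465 bp. Peaks at least as wide numbered 4, 8, 3 and 12 in the SMC1A lists and 69, 7 and 6 in the CTCF lists. At the strongest summit of the site, SMC1A pile-ups were 34 and 30 reads in WT and 39 and 26 reads in KO. The local backgrounds there were 1.19, 1.04, 1.41 and 0.857 reads. The deposited −log10 q was 33.9 and 30.0 in WT and 38.7 and 26.2 in KO, above 91.5% to 92.5% of the peaks of each list, and the genotypes overlapped. CTCF pile-ups were 54 reads over 2.28 in WT, and 85 over 6.09 and 53 over 11.0 in KO. The WT CTCF summit had a −log10 q of 50.6, above 94.6% of its list, and the KO summits 62.4 and 16.3, above 85.7% and 81.9% of theirs.

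Within this site, the strongest summit lay at a different place in the WT and the KO lists. In WT it was at 23984304 and 23984316 for SMC1A and 23984305 for CTCF, 4.5 kb inside the gene from the outer start and 3.0 kb upstream of the inner start. In KO it was at 23982581 and 23982589 for SMC1A and 23982611 and 23982613 for CTCF, 1.3 kb upstream of the inner start. The 3 WT positions lay close together, as did the 4 KO positions, and the genotypes did not overlap. Some lists also recorded a second, weaker summit in the site. WT SMC1A replicate 2 had a separate peak at 23982561 with a pile-up of 24 reads, below the 30 reads at its strongest summit. WT CTCF had one at 23982643 with 23 reads, below its 54. KO SMC1A replicate 2 had its second strongest at 23984994 with 20 reads, against 26 at its strongest. In the wide peaks of WT SMC1A replicate 1, KO SMC1A replicate 1 and both KO CTCF lists, only the highest point is recorded, and the peak covers the other genotype's summit too.

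The mean SMC1A summit position was 1.72 kb lower in mm10 in KO, that is, further into the gene (mean difference -1.72 kb, n = 2 against 2, exact two-sided permutation p = 0.33, the smallest this design allows). The measure was chosen after the summit positions had been seen. Of the 180 SMC1A regions of 2 kb or more held by all 4 lists, 5 (2.78%) had strongest summits at least 1 kb apart between the genotypes. Besides Bcl6, these lay in Ago2, Slc38a1 and Scd2 and 23.5 kb from Col19a1. Merging SMC1A and CTCF gave 1593 regions of 2 kb or more held by all 7 lists, of which 5 (0.314%) were so split. These lay at Bcl6, Ago2, Slc38a1 and Elavl1 and on the Y chromosome 39.5 kb from Gm52481. In 3 of each 5, Bcl6 among them, the summits of each genotype also lay within 200 bp of each other. The site at the start of Bcl6 did not split in this way.

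**Figure D2:**
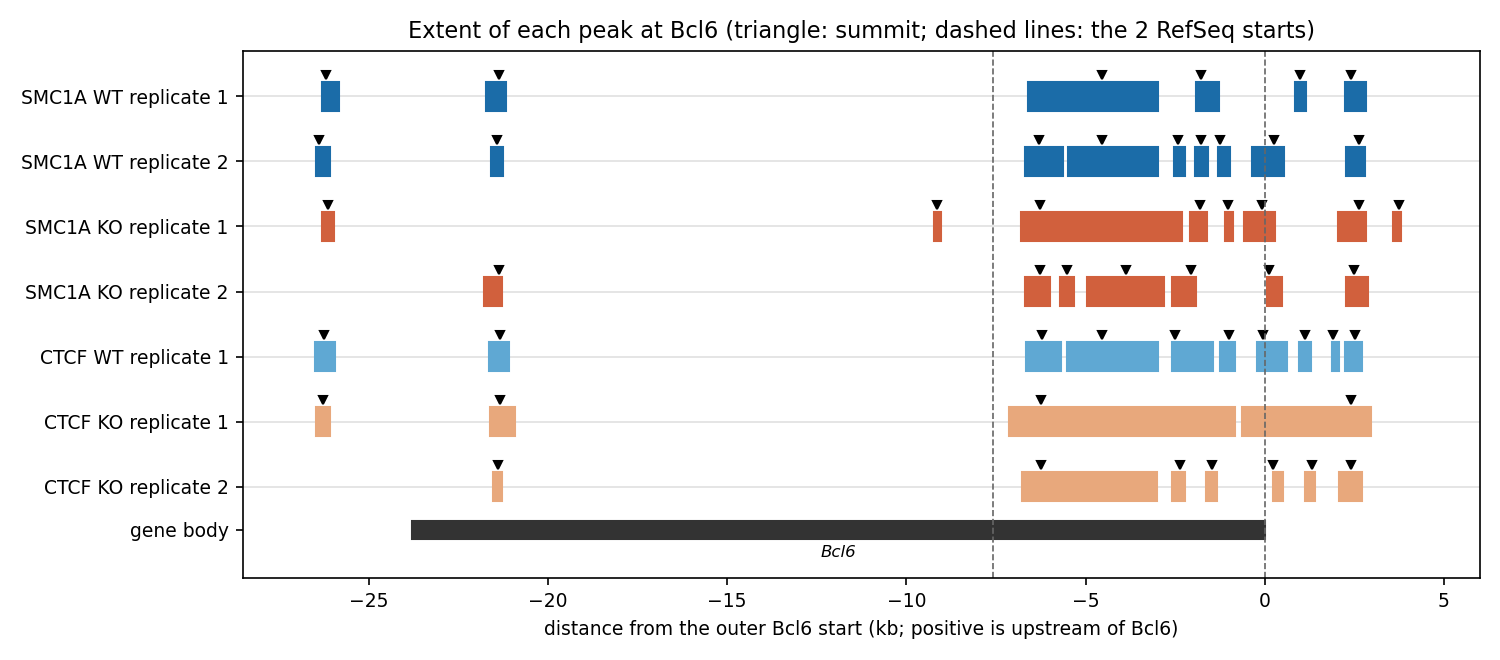
Extent of each peak around the Bcl6 body in each of the 7 lists against distance from the outer start in kb; triangles mark summits and dashed lines the starts. Peaks of all lists fill the interval between the starts, with the strongest WT summits 4.5 kb and the strongest KO summits 6.2 to 6.3 kb inside the gene, and none cover the inner start.

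The other shared site at Bcl6 ran from 23988219 to 23991817, over the outer start and into the lncRNA gene Gm31527, which overlaps the first bases of Bcl6. Its strongest summit lay 2.4 to 2.6 kb upstream of the start in all 7 lists. SMC1A pile-ups there were 21 and 19 reads in WT and 30 and 24 in KO, over 1.07, 1.56, 2.12 and 0.686. Both KO values exceeded both WT values, a separation that 2 against 2 libraries cannot test below 0.33, and neither pile-ups nor −log10 q are corrected for depth. The −log10 q values were 17.4 and 11.9 in WT and 21.3 and 25.6 in KO, above 78.0%, 69.6%, 81.6% and 91.6% of their lists. CTCF pile-ups were 35 reads in WT and 102 and 43 in KO, with −log10 q of 20.7, 104 and 21.6. A weaker summit near the start itself was called separately in 5 lists. It had 14 reads in WT SMC1A replicate 2, 18 and 9 in KO SMC1A, 21 in WT CTCF and 24 in KO CTCF replicate 2. In KO CTCF replicate 1 a single peak covered both.

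Toward the 3' end of the gene, a site at 23967072 to 23967945, 21.4 kb from the start, was held by 6 lists. SMC1A pile-ups were 10 and 8 reads in WT and 7 in KO replicate 2, and KO replicate 1 had no peak. CTCF had 17 reads in WT and 39 and 17 in KO. KO SMC1A replicate 1 recorded peaks of 6 and 8 reads elsewhere in the neighbourhood, and why it had none here was not tested. A peak of 8 reads 9.1 kb inside the gene, between this site and the inner start, and one of 10 reads 3.7 kb upstream of the outer start were called in KO SMC1A replicate 1 alone. No site within 5 kb of the gene body was lost or gained between the genotypes in either mark. In the gene body itself, leaving out regions beside it, few could have been. There, 2 SMC1A and 3 CTCF regions were held by every WT list, and as many by both KO lists. Genome-wide, 4.15% and 13.1% of such SMC1A regions and 18.9% and 8.29% of such CTCF regions were lost and gained. A region counted as lost when every WT list and no KO list held it, and as gained when both KO lists and no WT list did.

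Downstream of the 3' end, 4 sites lay within 100 kb. The site 26.3 kb from the start, just past the gene, was held by WT SMC1A with 10 and 12 reads and by KO SMC1A replicate 1 with 14. CTCF had 18 reads there in WT and 25 in KO replicate 1, and replicate 2 of KO had a peak in neither mark. The site 34.8 kb from the start was mainly a CTCF site, with 37 reads in WT and 59 and 16 in KO. SMC1A was called there only in KO replicate 1, at 10 reads. A peak 33.5 kb from the start, with 16 reads, was called in KO CTCF replicate 2 alone. A site 89.9 kb from the start, between Sst, the somatostatin gene, and Rtp2, was held by every list but KO SMC1A replicate 2. Its SMC1A peaks had 9 reads in WT replicate 1, 10 and 11 in WT replicate 2 and 12 in KO replicate 1, and its CTCF peaks 18 in WT and 64 and 26 in KO. KO SMC1A replicate 2, the SMC1A list with the lowest background, had no peak at any of these sites. Its longest peak-free stretch, 416.1 kb, ran from 437.9 to 21.8 kb downstream of the start. Both WT SMC1A lists had a peak-free stretch of 347.6 kb on the same side, and KO SMC1A replicate 1 one of 288.0 kb.

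The third site held by all 7 lists lay 438.4 kb downstream, at 23550177 to 23550926 within Rtp4, which encodes an interferon-induced receptor transporter protein. SMC1A pile-ups were 13 and 15 reads in WT and 25 and 18 in KO, over 1.07, 1.56, 2.12 and 1.29. The CTCF pile-up was 25 reads over 4.56 in WT, 145 over 6.09 in KO replicate 1 and 39 over 11.0 in KO replicate 2. The KO replicates thus spread more widely than the WT value differed from the lower of them. The peak of 145 reads ranked above 95.6% of its list, the WT peak above 54.8% and that of KO replicate 2 above 55.8%. Also within Rtp4, a site 378.8 kb downstream, at 23608965 to 23610359, was the one CTCF region gained in the whole stretch. Its CTCF pile-ups were 28 and 17 reads over 2.19 and 3.80 in the KO lists, and SMC1A was called there in KO replicate 1 with 6 reads. The other 3 sites of the far downstream stretch, at 439.4, 356.0 and 143.9 kb, were called in KO CTCF replicate 1 alone, with 14, 23 and 10 reads.

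**Figure D3:**
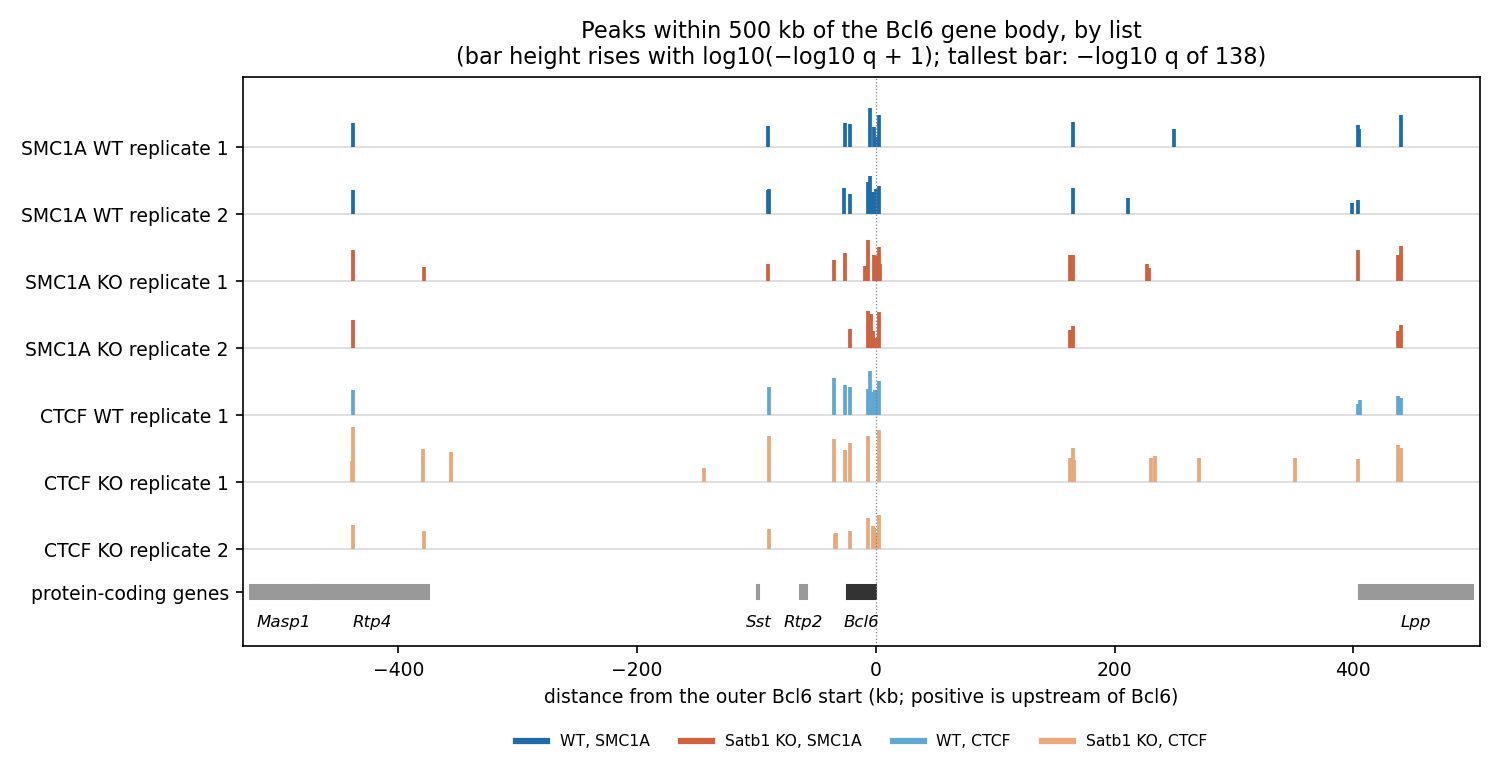
Position of every peak within 500 kb of the Bcl6 body in each list, against distance from the outer start in kb, with positive values upstream; bar height rises with the logarithm of the deposited −log10 q and the protein-coding genes are drawn below. Bars cluster at Bcl6 in all 7 lists, and the interval from Bcl6 to Lpp holds scattered low bars that are most numerous in KO CTCF replicate 1 and missing from WT CTCF before 403.7 kb.

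The stretch from 100 to 500 kb upstream, which spans most of the interval between Bcl6 and Lpp and runs into Lpp, was sparsely and unevenly occupied. It held 5 and 4 peaks in WT SMC1A, 7 and 4 in KO SMC1A, 4 in WT CTCF, and 10 and 0 in KO CTCF. They formed 16 sites, more than in any of the other stretches described, but 11 of those were held by a single list and none by all 7. The last 4 of the 16, among them all 4 WT CTCF peaks, lay at the start of Lpp or inside it. Over the whole neighbourhood 17 of 30 sites (56.7%) were in a single list, against 45.4% genome-wide, and 8 of the 17 came from KO CTCF replicate 1, the longest list. The remaining single-list sites came from KO SMC1A replicate 1 (4), WT SMC1A replicate 2 (2) and, with 1 each, WT SMC1A replicate 1, WT CTCF and KO CTCF replicate 2. WT CTCF had no peak over 401.0 kb, from 2.7 to 403.7 kb upstream of the start. KO CTCF replicate 2, the list with the highest background and the highest weakest pile-up, had none from 2.7 kb to the end of the stretch at 500.0 kb.

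Only one site of this stretch was held by all 4 SMC1A lists. It lay 165.3 kb upstream of Bcl6, at 24153921 to 24154455, in no annotated gene. The SMC1A pile-ups were 12 and 12 reads in WT and 13 and 9 in KO, over 0.726, 0.633, 0.862 and 0.523. The −log10 q values were 8.80 and 9.46 in WT and 9.26 and 6.55 in KO, above 46.0% to 60.3% of their lists, and the genotypes overlapped. KO CTCF replicate 1 had 30 reads there over 2.47, and neither WT CTCF nor KO CTCF replicate 2 had a peak. Cohesin was thus called in both genotypes at a position where the single WT CTCF list held no CTCF peak. Closer to Bcl6, at 24151355 to 24151870, a site 162.7 kb upstream was held by both KO SMC1A lists and by no WT SMC1A list. Its KO pile-ups were 14 and 8 reads over 0.989 and 0.772, with −log10 q of 9.64 and 4.04, and KO CTCF replicate 1 had 20 reads over 3.25. The summits of the KO SMC1A peaks lay at 24151461 and 24151676. A further peak 166.2 kb upstream was called in KO CTCF replicate 1 alone, with 20 reads.

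From 211.2 to 399.3 kb upstream every site was held by a single list. WT SMC1A lists gave 3 of these 9 sites, with 7 to 9 reads, and KO SMC1A replicate 1 gave 2, with 6 and 8 reads. KO CTCF replicate 1 gave the other 4, with 17 to 21 reads. Of the 9, 7 lay in the lncRNA gene Gm31814. All had −log10 q under 10, and none had a counterpart in another list, so no site here recurred between libraries.

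Occupancy recurred at the start of Lpp. A site 404.0 kb upstream of Bcl6, at 24392514 to 24393527, covered the start of Lpp. It also overlapped Lppos, the noncoding gene on the opposite strand, but not the start of Lppos, at 24393655. SMC1A pile-ups were 10 and 6 reads in WT and 18 in KO replicate 1, with no peak in KO replicate 2, and CTCF had 9 reads in WT and 18 in KO replicate 1. A WT CTCF peak of 9 reads over 1.57, 405.7 kb upstream at 24394439 to 24394638, was the one CTCF region lost in the whole stretch. With 1 WT list and a −log10 q of 2.89, that loss is the absence of a weak peak from both KO lists. Inside Lpp, a site 437.3 kb upstream of Bcl6, at 24425795 to 24426293, was the other gained SMC1A region. Both KO lists held it, with 15 and 8 reads over 1.16 and 0.857 and −log10 q of 9.81 and 3.70, and no WT SMC1A list did. CTCF was called there in WT with 13 reads over 2.28 and in KO replicate 1 with 41 over 3.65. The nearby site 440.0 kb upstream was held by WT SMC1A replicate 1 with 21 reads, by KO SMC1A with 28 and 12, and by CTCF with 12 reads in WT and 36 in KO replicate 1.

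**Figure D4:**
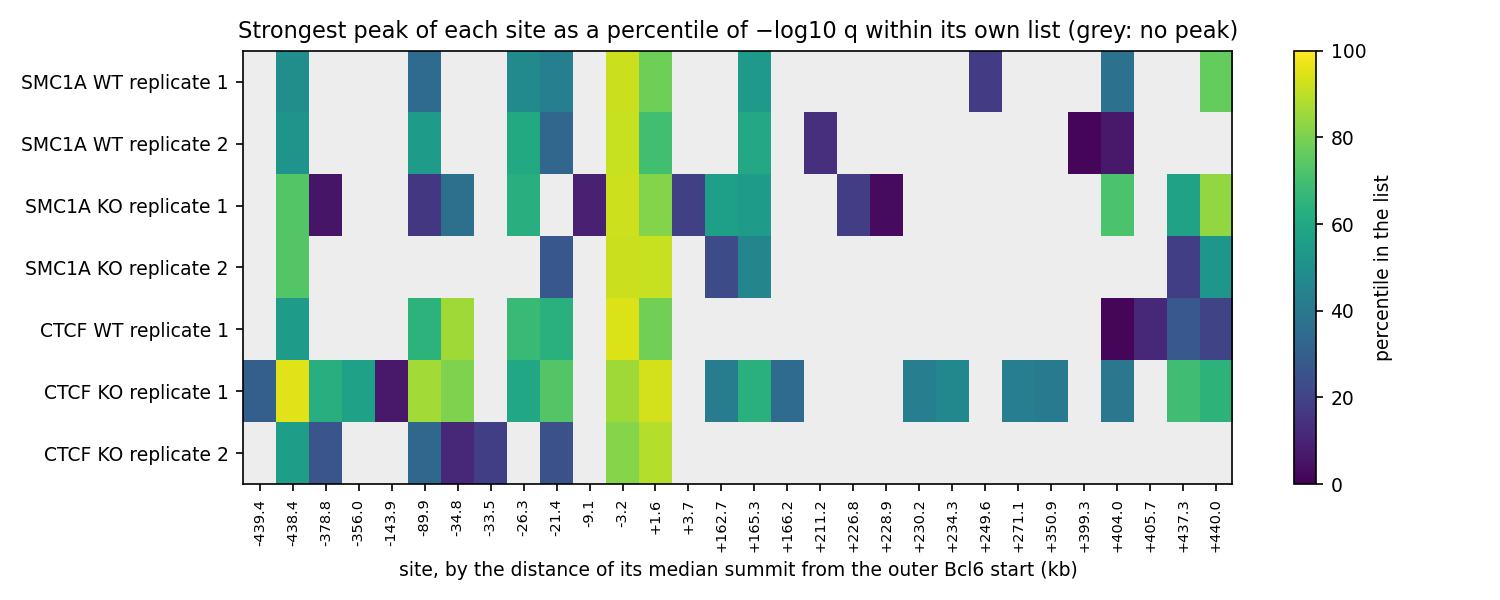
Each column is one of the 30 sites, by the distance of its median summit from the outer Bcl6 start in kb, and each row a list; colour gives the percentile, within that list, of the −log10 q of its strongest peak at the site, and grey means no peak. The columns at -3.2 and +1.6 kb are filled and high in all 7 rows, whereas most columns beyond +100 kb have a single filled cell.

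With the settings used here, the lost shares were lower and the gained shares higher than genome-wide in both marks, on few regions. These directions changed with the settings. For SMC1A, 0 of the 8 regions held by both WT lists were lost, where 4.15% were lost over all such regions. A count of 0 of 8 allows a share of up to 37.5% (3 regions of 8 taken as the limit), so a loss at the genome-wide rate was not detectable with so few regions. Of the 8 regions held by both KO lists, 2 (25.0%) were gained, the ones 162.7 and 437.3 kb upstream, against 13.1% genome-wide. In every SMC1A list were 4 of 22 regions (18.2%), against 35.0% genome-wide. For CTCF, 1 of 11 regions (9.09%) was lost against 18.9%, 1 of 7 (14.3%) was gained against 8.29%, and 6 of 23 (26.1%) were in every list against 27.0%. With denominators of 7 to 23, none of these counts differs from the background by more than a few regions. Neither gained SMC1A region reached a −log10 q of 5 in KO replicate 2, and with that minimum in every list neither was gained. In that setting 2 of 7 SMC1A regions were lost, against 4.68% genome-wide, and 0 of 5 gained, against 12.9%. For CTCF, 0 of 7 were then lost, against 7.96%, and 0 of 3 gained, against 7.7%.

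The batch given in the labels pairs 1 WT with 1 KO library. Which genotype held more SMC1A regions alone differed between the pairs, and batch cannot be told apart from the single libraries in it. Among 22 SMC1A regions of batch 1, 3 were held by WT alone and 10 by KO alone (13.6% and 45.5%, against 9.43% and 36.9% genome-wide). Among 17 of batch 2, 7 were held by WT alone and 3 by KO alone (41.2% and 17.6%, against 23.2% for each). For CTCF in batch 1, 1 of 22 regions was held by WT alone (4.55%, against 11.4% genome-wide). KO alone held 11 of the 22, against a genome-wide share of 41.7%. The direction of these differences was thus opposite in the 2 batches for SMC1A. In batch 1 the KO list was the longer, and in batch 2 the lists were of like length; the part of list length in the counts was not tested.

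Peak density around Bcl6 did not differ detectably between the genotypes. The SMC1A lists held 13 and 16 peaks within 500 kb of the body in WT and 19 and 12 in KO, or 0.654, 0.775, 0.675 and 0.580 per 1000 peaks of the list. The means were 0.715 ± 0.0859 per 1000 (SD, n = 2) in WT and 0.627 ± 0.0671 (SD, n = 2) in KO, a difference of -0.0871 (exact two-sided permutation p = 0.667, smallest possible 0.33). Within batch 1 the difference was +0.0211 and within batch 2 -0.195. In the 1 Mb window that holds Bcl6, from 23000001 to 24000000, WT held 20 and 25 SMC1A peaks and KO 26 and 18. limma gave a log2 difference of -0.30 ± 0.17 (SE; KO against WT, relative to list totals) with an adjusted p of 0.364. The next window, with the distal sites, held 5 and 5 (WT) and 7 and 4 (KO), with a log2 difference of -0.17 ± 0.36 (limma adjusted p = 0.876). Of 1276 windows tested, 4.00% were called higher and 1.96% lower in KO, and neither Bcl6 window was among them. The CTCF lists held 17 peaks within 500 kb in WT and 21 and 12 in KO, or 0.436, 0.377 and 0.523 per 1000, with no test for 1 WT list.

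Most cohesin peaks around Bcl6 coincided with CTCF in some list. Of the 60 SMC1A peaks, 53 (88.3%, 95% Wilson interval 77.8% to 94.2%) overlapped a peak of any CTCF list. KO CTCF replicate 1, the longest list, gave the same 53 of 60 on its own. By list the shares were 12 of 13 (92.3%, 66.7% to 98.6%) and 14 of 16 (87.5%, 64.0% to 96.5%) in WT. In KO they were 15 of 19 (78.9%, 56.7% to 91.5%) and 12 of 12 (100%, 75.8% to 100%). The genome-wide shares of 93.8% to 96.3% lay inside the interval of each list except KO replicate 1, whose upper bound fell below them. Against the WT CTCF list alone, the shares at Bcl6 were 69.2%, 75.0%, 63.2% and 83.3%, and genome-wide 87.9%, 85.3%, 76.8% and 83.6%. The intervals cover counting error only. Neighbouring peaks of one library are not independent, nor are peaks of the same site in different libraries. Sites with cohesin and no CTCF in any list numbered 7, all of them in a single list, and 10 sites had CTCF and no cohesin. The order of sites by strength, as Spearman's rho of −log10 q over shared sites, ran over a similar range within and across genotypes. It was 0.76 for the WT SMC1A replicates (8 sites) and 0.75 for the KO replicates (7 sites). Across genotypes, WT replicate 1 gave 0.81 with KO replicate 1 (8 sites) and 0.83 with KO replicate 2 (6 sites), and WT replicate 2 gave 0.46 with KO replicate 1 (7 sites). The rho values rest on few sites shared by lists of unequal length and unknown depth and are descriptive.

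Among 35 regulators of DP thymocytes, Bcl6 ranked low in peaks within 500 kb. By peaks per 1000 it was between rank 25 and rank 32 in the SMC1A lists, where the medians over the regulators were 1.10 to 1.16. In the CTCF lists it ranked 32, 35 and 29, with medians of 0.933 to 0.960. The most similar regulators over the 7 lists, by Euclidean distance of log2 peaks per 1000, were Gata3 (1.06), Themis (1.07) and Zbtb16 (1.14). GATA3 is the zinc finger factor of CD4 lineage choice, THEMIS a signalling protein of positive selection, and Zbtb16 encodes PLZF, a BTB zinc finger factor of innate-like T cells. In WT against KO, SMC1A peaks numbered 14 and 14 against 25 and 16 at Gata3, 9 and 10 against 12 and 10 at Themis, and 6 and 13 against 17 and 11 at Zbtb16.

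Genes known as BCL6 targets and BTB zinc finger relatives of Bcl6 were counted by SMC1A and CTCF regions within 20 kb of their bodies. These lists were drawn up with earlier results of these data known, and the counts are descriptive. Near 22 genes known as BCL6 targets, 0 of 50 SMC1A regions were lost, against 4.15% genome-wide, and 11 of 72 (15.3%) were gained, against 13.1%. Il7r, the interleukin-7 receptor, had 3 gains, Rora and Nfkb1 2 each, and Runx2, Runx3, Klf2 and S1pr1 1 each. KLF2 and its target S1PR1, a lipid receptor, act in thymic exit. Near 11 BTB zinc finger relatives, 2 of 30 were lost (Zbtb7b and Zbtb7a) and 2 of 31 gained (Zbtb20 and Zbtb32). For CTCF, 12 of 95 regions (12.6%) were lost at targets and 8 of 56 (14.3%) at BTB relatives, against 18.9% genome-wide. CTCF gains were 3 of 51 at targets and 1 of 30 at relatives, where 8.29% were gained genome-wide. At the targets the CTCF gains lay at S1pr1, Il7r and Nfkb1.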

How the data were processed

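Nuclei of sorted DP thymocytes were exposed to antibody for 2 h and to pAG-MNase for 1 h, and libraries started from about 5 ng of DNA, per the labels' protocols. Per the submitters' processing notes, the tools were MACS2, Bowtie2, Trimmomatic 1.24, SAMtools, deepTools and R 4.12, with mm10. For the settings and the peak-calling control: not given in the sources used here. Lists of 7 of the 18 samples were analysed, each called on its own library. The authors' deposited lists give a score, a fold (ratio) over local background, −log10 p-value, −log10 q-value and a summit offset per peak. These are the authors' own values, used within a list only, and the highest q was 0.0498.

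Peaks of the autosomes and sex chromosomes were merged at an overlap of at least 1 bp. Genes, starts and promoter sequences came from RefSeq GRCm38.p6, and exons, introns and peak sequences were not analysed here. Pile-up and background were solved from fold and −log10 p under a Poisson model, with −log10 p met within 0.001 for all 110 peaks. Intervals are Wilson 95%. SMC1A peaks in 1 Mb windows (mean of at least 5) were tested with limma 3.58.1 (trend) on log2((peaks + 0.5) per 1000000 peaks), with Benjamini-Hochberg adjustment over all windows. Python 3.11.15, pandas 2.3.3, scipy 1.17.1 and R 4.3.3 were used, and scripts were tested on simulated data.

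Sites named are those within 5 kb of the body, all lost or gained, and those held by all lists; the other sites, and the summit measure, were chosen after their values were seen. Members and gene lists were chosen with earlier results of these data known. Some results of gene lists are not reported here. Replicate numbers equal the labels' batch and therefore pair WT with KO; deviations of same-numbered SMC1A libraries had a correlation of 0.0031 over 1276 windows. Alternatives were lists of equal length, a −log10 q minimum of 5, an overlap of 0.5, shared summits within 200 bp, 250 kb flanks, single CTCF lists, other window settings, the replicate block and each replicate left out.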

Additional observations from a re-analysis of the deposited data

How the results depend on the processing

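Counts of lost and gained regions near Bcl6 moved with most settings. SMC1A losses (0) became 2 of 7 with a −log10 q of 5 or more, against 4.68% genome-wide in that setting. They were 1 of 8 with lists of equal length (against 7.85%) and 2 of 9 with summits within 200 bp (against 5.38%). With a replicate left out they were 1 to 3, the 3 (of 9, against 15.5%) being without KO replicate 1. SMC1A gains (2) became 0 of 5 at the q minimum (against 12.9%), 1 of 7 by summits (14.0%) and 1 of 5 within 250 kb (13.1%). With a replicate left out they were 2 to 8, the 8 (of 18, against 31.6% genome-wide in that setting) being without KO replicate 2. CTCF losses (1) became 0 of 7 at the q minimum (against 7.96%), 0 of 7 at equal length (14.1%) and 0 of 6 within 250 kb (18.9%). By summits they were 5 of 17 (against 28.5%). With a replicate left out they were 1 to 7, the 7 (of 16, against 53.8%) being without KO replicate 1. CTCF gains (1) became 0 of 3 at the q minimum (against 7.7%), 0 of 5 by summits (10.2%) and 0 of 5 within 250 kb (8.29%). With a replicate left out they were 2 to 11, the 11 (of 21, against 47.1%) being without KO replicate 2. The pooled share of SMC1A peaks at CTCF, 88.3%, was 100% at the q minimum and 70.0% by summits. Against single CTCF lists it was 71.7% (WT), 88.3% (KO replicate 1) and 55.0% (KO replicate 2). With an SMC1A replicate left out it was 85.4% to 92.7%. The genome-wide shares also moved when a list was left out, by an amount that depended on the list. The CTCF lost share was 18.9% with all lists, 53.8% without KO replicate 1 and 19.6% without KO replicate 2. The cause was not tested. The density difference of -0.0871 per 1000 kept its sign in its 7 alternatives but ran from -0.174 at the q minimum to -0.0264 without WT replicate 2. The summit distance was recomputed only with each replicate left out, and was -1.73 to -1.72 kb. With the replicate block, which pairs WT and KO by batch, the Bcl6 window gave a log2 difference of -0.30 with a limma adjusted p of 0.361. Over its 11 alternatives this difference ran from -0.43 to -0.17 and its adjusted p from 0.322 to 0.751. Windows called over the genome fell from 76 to 18 at the q minimum, to 0 with lists of equal length (164 at an unadjusted p under 0.05; lowest limma adjusted p 0.256), to 40 and 38 without WT replicates 1 and 2, and to 15 and 22 without KO replicates 1 and 2. The block gave 80. The smallest pile-up recorded in KO CTCF replicate 2 was 11 reads in the sample taken, against 6 in WT CTCF.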
